A study of Rattus norvegicus with 16 samples.

Results

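Hippocampal RNA of rats labelled depression-susceptible was compared with that of rats labelled insusceptible, both after 8 weeks of chronic mild stress (CMS), a schedule of small, changing stressors. The arrays were chosen by their group label, which gave 4 depression-susceptible and 4 insusceptible arrays, 8 of the 16 in the series. The other arrays came from 4 anxiety-susceptible samples after the same 8 weeks of CMS and from 4 control samples of rats kept without CMS. Where their values stand beside a named gene, they show which group lay away from control. All groups were male Sprague-Dawley rats with no allele, drug or vehicle named in the labels, and the RNA was total RNA of the dissected hippocampus. Neither the age of the rats, nor how stressed rats were sorted by behaviour, nor how many animals stand behind the 4 arrays of a group is given in the sources used here.

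Chronic mild stress is used in rats because some animals develop a loss of interest in sweet solutions, a sign likened to depression, while others keep near-normal behaviour under the same stressors. The hippocampus is dense in corticosteroid receptors and takes part in shutting off the stress hormone response. Its stress response is usually read from glucocorticoid-induced genes, activity-dependent early genes, growth factors and inhibitory transmission. The dissected tissue also holds blood, vessels, meninges and, from the neighbouring ventricle, choroid plexus, the secretory epithelium that makes cerebrospinal fluid.

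Globin transcripts, which rose, and interferon-induced transcripts recur in the results, so the promoters of 2 globin genes and 2 interferon-induced genes, chosen after their values were seen, are shown first. Sequences are the 250 bases before the annotated start, from RefSeq on build GRCr8, read 5′ to 3′ on the strand of the gene. In the globin promoters the capitals mark the CACCC box, the CCAAT box and the TATAAA box on either strand. In the interferon-induced promoters they mark, on either strand, a pair of GAAA copies with any 2 bases between them, the core of an interferon-stimulated response element. Neighbouring matches that overlap are shown as 1 run of capitals. The beta-globin gene Hbb-b1 lies at chr1:167643521-167643770 (minus strand), the alpha-globin gene Hba-a1 at chr10:15842581-15842830 (minus strand), the interferon regulatory factor gene Irf7 at chr1:205800024-205800273 (minus strand) and the antiviral synthetase gene Oas1a at chr12:41330216-41330465 (plus strand).
Hbb-b1: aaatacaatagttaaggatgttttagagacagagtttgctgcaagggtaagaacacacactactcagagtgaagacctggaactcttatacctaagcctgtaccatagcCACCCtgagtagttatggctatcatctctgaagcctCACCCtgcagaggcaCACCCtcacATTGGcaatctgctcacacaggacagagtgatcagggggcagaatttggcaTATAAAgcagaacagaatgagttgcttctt
Hba-a1: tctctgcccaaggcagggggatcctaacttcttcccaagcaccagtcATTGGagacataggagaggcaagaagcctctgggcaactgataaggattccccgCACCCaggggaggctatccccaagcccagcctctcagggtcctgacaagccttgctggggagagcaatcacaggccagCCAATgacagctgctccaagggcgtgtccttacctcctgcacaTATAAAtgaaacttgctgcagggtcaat
Irf7: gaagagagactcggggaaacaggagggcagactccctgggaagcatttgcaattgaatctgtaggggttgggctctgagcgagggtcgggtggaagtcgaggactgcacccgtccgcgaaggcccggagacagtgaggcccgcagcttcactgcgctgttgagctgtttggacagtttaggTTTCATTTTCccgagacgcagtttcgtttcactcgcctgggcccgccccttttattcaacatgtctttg
Oas1a: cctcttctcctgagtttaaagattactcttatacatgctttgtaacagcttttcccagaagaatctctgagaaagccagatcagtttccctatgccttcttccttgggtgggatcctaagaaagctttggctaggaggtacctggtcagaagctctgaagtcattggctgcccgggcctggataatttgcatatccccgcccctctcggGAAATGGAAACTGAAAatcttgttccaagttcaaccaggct
Hbb-b1 had 3 CACCC matches and Hba-a1 had 1, while CCAAT matched at 1 place in Hbb-b1 and at 2 in Hba-a1. TATAAA began 30 bases before the start in Hbb-b1 and 28 bases before it in Hba-a1. Over the 33469 rat promoters of the same length, CACCC occurred in 49.2%, CCAAT in 34.0% and TATAAA in 12.9%. The spaced pair of GAAA copies, which matched at 1 place in Irf7 and at 2 overlapping places in Oas1a, occurred in 3.41%. These matches describe the sequence only. Ifit1 and Oas1k, described further on, had no entry in the promoter table.

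The arrays lay on 4 slides in a layout that limits every value given here. Slides 1 and 2, scanned on day 1, each carried 2 depression-susceptible and 2 control arrays, slide 4 carried the 4 insusceptible arrays and slide 3 the 4 anxiety-susceptible arrays, both scanned on day 2. Group, slide and scan day therefore cannot be told apart between depression-susceptible and insusceptible rats. Processed signals had a 75th percentile between 4531 and 5293 on depression-susceptible arrays, against 1869 to 1916 on insusceptible arrays, with 1630 to 1903 on anxiety-susceptible and 4609 to 4903 on control arrays. An array detected 62.2% to 74.0% of its probes well above background. Arrays of 1 group on 1 slide varied 0.719 to 0.940 times as much as repeated spots of a probe would make them vary, so they were averaged and counted once. The averages gave 2 depression-susceptible samples, 1 insusceptible, 1 anxiety-susceptible and 2 control samples. Standard errors (SE) and adjusted p come from the spread between slides 1 and 2, are assumed to hold for the lone samples, and say nothing of the spread between animals. The fit has no slide term, although depression-susceptible and control samples share slides 1 and 2. Their slide 1 minus slide 2 differences correlated at 0.721 over 17713 probes, so much of that spread is 1 shared shift. Tests against control leave this pairing out. Levels are log2 signals relative to the 75th percentile of the array, and differences are depression-susceptible minus insusceptible on that log2 scale unless another pair is named.

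In this fit of 6 samples by limma, 12 of 17856 probes passed an adjusted p of 0.05 (0.0672% called), 11 higher and 1 lower in depression-susceptible rats. A fit to all 16 arrays with the slide as a random block, which counts arrays separately but lets arrays of a slide resemble each other, called 7128 probes (39.9%), 3486 higher and 3642 lower. It counts as separate the arrays that vary no more than repeated spots. Its adjusted p and counts therefore overstate the evidence for a group difference and are given for description only. After quantile normalization the 6-sample fit called 885 (4.96%), 672 higher and 213 lower. The 12 calls rest on all 6 samples: 0 probes passed without the depression-susceptible or the control sample of either slide, with 3041 to 4727 probes at an unadjusted p under 0.05, and 0 passed with normexp, although the 12 kept their sign in each slide-sample omission and 11 of them with normexp. Only the 12 probes are therefore said to have risen or fallen, and other genes are given by their values. At the level of gene symbols, with the brightest probe for each of 11344 symbols, the 6-sample fit called 9 (0.0793%). The random-block fit called 4339 (38.2%), 2383 higher (21.0%) and 1956 lower (17.2%). The median difference over all symbols was 0.015, and -0.20 with normexp. Counts of higher and lower list members below come from the random-block fit. Those counts and the list medians are to be read beside these values.

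**Figure D1:**
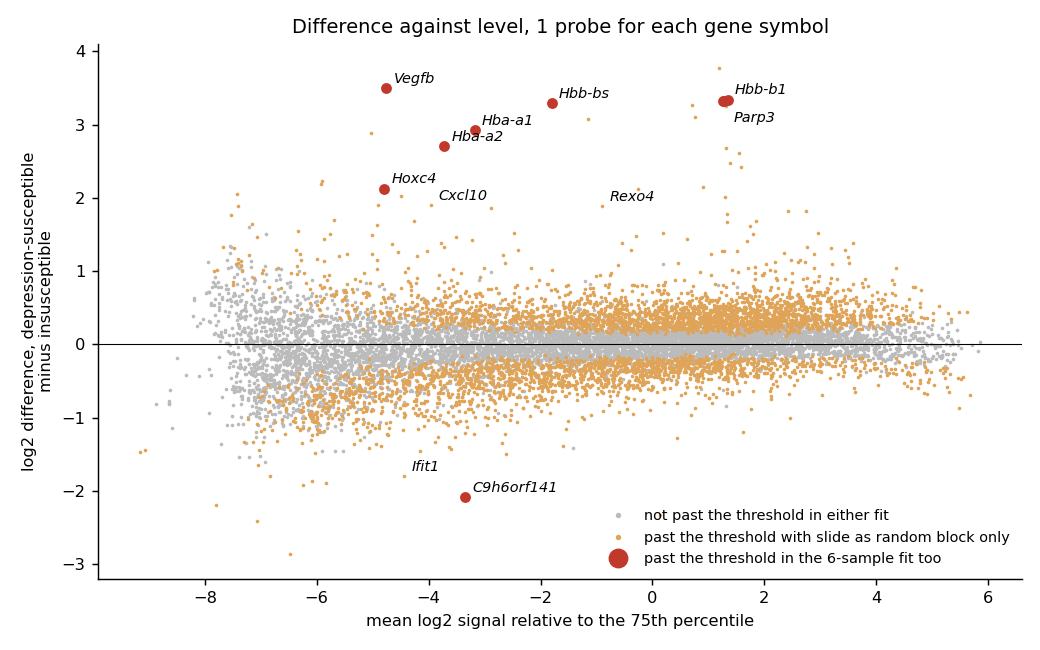
Each point is 1 gene symbol, with its mean level in the 2 groups on the x axis (log2 signal relative to the 75th percentile) and the log2 difference, depression-susceptible minus insusceptible, on the y axis. The 9 symbols past the threshold in the 6-sample fit (red) are 6 globins, Vegfb and Hoxc4 above and C9h6orf141 below, while the symbols past it with the slide as random block only (orange) fill both sides at all levels.

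Control values placed the difference on the insusceptible side for most genes. Among the 4339 symbols called in the random-block fit, the control mean lay nearer to the depression-susceptible mean for 3600 (83.0%) and nearer to the insusceptible sample for 739 (17.0%), beside 71.7% and 28.3% of all 11344 symbols. Among the 3600, the anxiety-susceptible sample lay nearer to the insusceptible one for 2850 (79.2%), beside 68.6% of the corresponding symbols overall. Depression-susceptible and control arrays share slides 1 and 2, and insusceptible and anxiety-susceptible arrays share scan day 2, so these shares cannot be told apart from the layout of the slides.

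Globin transcripts rose in depression-susceptible rats and made up 6 of the 12 probes. Hbb-b1, a beta chain of adult hemoglobin, read 2.99, 3.04, 3.0 and 3.03 on the depression-susceptible arrays and -0.34, -0.33, -0.30 and -0.31 on the insusceptible arrays. The difference of 3.34 ± 0.086 (SE) was a 10.1-fold higher signal (adjusted p = 0.0293 in the 6-sample fit). Control samples stood at -1.31 and -1.29 and the anxiety-susceptible sample at -1.82, so the depression-susceptible level lay 4.31 above control on shared slides, while the insusceptible level lay 0.98 above control. Both of these distances passed the threshold (adjusted p = 0.00196 for depression-susceptible and 0.0110 for insusceptible against control).

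Hba-a1, an alpha chain, read -1.68, -1.65, -1.75 and -1.78 on depression-susceptible arrays against -4.58, -4.62, -4.66 and -4.70 on insusceptible arrays. It differed by 2.92 ± 0.12 (adjusted p = 0.0360), with control samples at -6.12 and -5.95 and the anxiety-susceptible sample at -6.18. The insusceptible level of Hba-a1 in turn lay 1.40 above control. Hbb (3.32), Hbbl1 (3.32) and Hbb-bs (3.29), further beta chains, and Hba-a2 (2.70), a second alpha chain, rose by similar amounts, each 4.21 to 4.34 above control in depression-susceptible and 0.94 to 1.51 above control in insusceptible rats. These chains are near-identical copies whose probes can share target, so they do not count as separate genes here. With normexp background correction the difference was 3.27 for Hbb-b1, 1.49 for Hba-a1 and 1.18 for Hba-a2.

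Other red cell genes were weaker, dimmer or not different. Alas2, the first enzyme of haem synthesis in red cell precursors, stood at -3.59 and -3.39 in depression-susceptible samples, -5.51 in the insusceptible, -5.92 in the anxiety-susceptible and -6.06 and -5.64 in control samples. Its difference of 2.02 ± 0.22 had an adjusted p of 0.0744 in 6 samples and 1.52e-05 with the slide as random block, and was 0.14 with normexp. Hba-a3 was well above background on the 4 depression-susceptible arrays and on no insusceptible, anxiety-susceptible or control array. Processed signals bound it as at least 1.13-fold higher (adjusted p = 0.0815 in 6 samples), but its difference was -1.29 with normexp.

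Ahsp, the chaperone of free alpha globin, differed by 0.45 with its highest levels in control samples (-4.40 and -4.57), and Klf1, the master transcription factor of red cell genes, by -0.13. Epb42, part of the red cell membrane skeleton, was well above background on 4 depression-susceptible, 0 insusceptible and 1 control arrays, so no exact difference is given. Bpgm, which makes the phosphate that loosens oxygen from hemoglobin, differed by 0.36, with control samples above both groups at 3.07 and 3.03. Of the 12 red cell genes tested, 10 were higher and 0 lower in the random-block fit, beside 21.0% higher and 17.2% lower of all symbols. Their median difference was 2.04 (0.28 with normexp). This list counts the globin copies separately, so neither the count nor the median describes red cell genes beyond globin. The mean log2 level of the list ran from -2.04 to -2.02 on depression-susceptible arrays, -3.91 to -3.81 on insusceptible, -4.53 to -4.42 on anxiety-susceptible and -4.24 to -4.06 on control arrays. In whole tissue, more cells of a type and more RNA per cell cannot be told apart. Of 22 endothelial and mural cell markers, 4 were higher and 7 lower in the random-block fit, and their mean log2 level ran from -0.41 to -0.37 on depression-susceptible arrays and from -0.33 to -0.31 on insusceptible arrays. The part of blood content in the globin values was not tested.

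**Figure D2:**
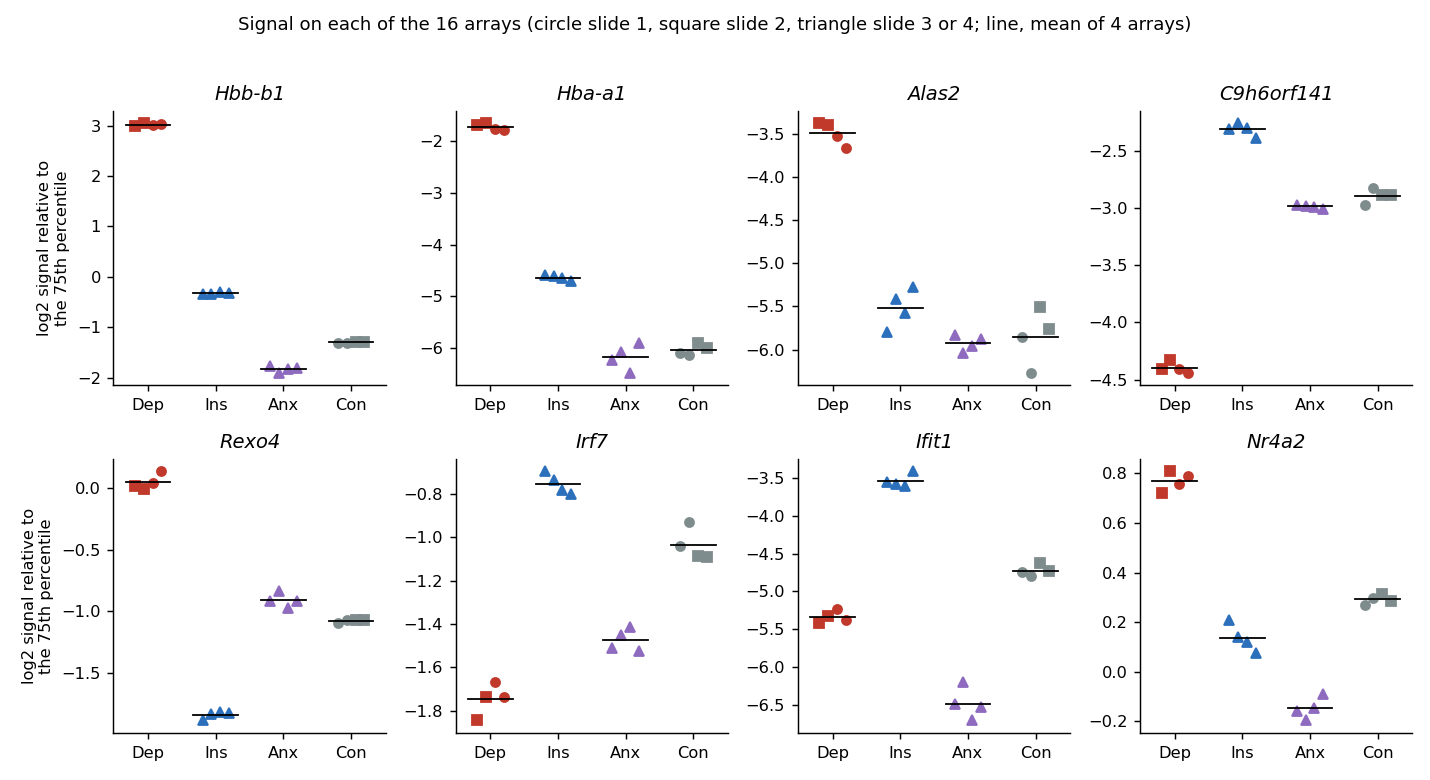
Log2 signal relative to the 75th percentile (y axis) of 8 genes on each of the 16 arrays, in depression-susceptible (Dep), insusceptible (Ins), anxiety-susceptible (Anx) and control (Con) groups; lines are means of 4 arrays. For Hbb-b1, Hba-a1, Alas2, Rexo4 and Nr4a2 the depression-susceptible mean is the highest of the groups, and for C9h6orf141 it is the lowest. Ifit1 is high on insusceptible arrays and well above background on only 1 anxiety-susceptible array.

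C9h6orf141, an uncharacterised open reading frame, was the only probe that fell. It read -4.40, -4.33, -4.41 and -4.44 on depression-susceptible arrays against -2.30, -2.26, -2.29 and -2.38 on insusceptible arrays, a difference of -2.09 ± 0.090 (adjusted p = 0.0360). Control samples stood at -2.90 and -2.88 and the anxiety-susceptible sample at -2.98, so the groups lay on opposite sides of control, by -1.51 in depression-susceptible and 0.58 in insusceptible rats. The difference was -2.10 with normexp. Hoxc4, a homeobox transcription factor of the posterior body axis, rose by 2.13 ± 0.090 (adjusted p = 0.0360). Its levels were -3.73 in both depression-susceptible samples, -5.85 in the insusceptible, -5.08 in the anxiety-susceptible and -4.75 and -4.69 in control samples, and the difference shrank to 0.10 with normexp.

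Vegfb, a vascular growth factor, rose too, but here the insusceptible sample stood alone. The depression-susceptible arrays read -3.01, -2.94, -3.13 and -2.97, and no insusceptible array had it well above background. Processed signals therefore bound it as at least 10.5-fold higher (adjusted p = 0.0299 in the 6-sample fit). Control samples at -2.79 and -2.96 lay beside the depression-susceptible ones, and the anxiety-susceptible sample at -3.61 was close to them. The normexp difference was 0.92 on the log2 scale, so the bound does not hold under that correction. The remaining 3 of the 12 probes have no gene symbol here. One, for a transcript outside the messenger RNA set, rose by 3.15, with depression-susceptible samples at -2.74 and -2.81, the insusceptible at -5.92, the anxiety-susceptible at -3.18 and control samples at -5.70 and -5.81. Its difference was 0.85 with normexp. The others were not well above background on any insusceptible array, and processed signals bound them as at least 16.7-fold and at least 2.86-fold higher. Control samples stood at -4.74 and -4.82 for the probe with the larger bound and at -6.23 and -6.26 for the one with the smaller bound. With normexp their differences were 1.44 and -0.80 on the log2 scale, so neither bound holds under that correction.

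Genes for which depression-susceptible rats lay away from control, with insusceptible rats closer to it, were taken by a further rule chosen after the values were seen. The rule itself required the depression-susceptible level to pass the 6-sample fit against control, so that passing is no separate result. Against control, that fit called 9.89% of probes for depression-susceptible and 28.9% for insusceptible rats. Siglec5, an inhibitory sialic acid receptor of immune cells, differed by -1.22 between depression-susceptible and insusceptible rats and by -0.98 between depression-susceptible and control rats. Sc5d, a late enzyme of cholesterol synthesis, stood at 0.68 and 0.61 in depression-susceptible samples against 1.37 in the insusceptible and 1.41 and 1.39 in control samples, but at 0.14 in the anxiety-susceptible sample. Cdkn1a, the p21 brake on the cell cycle and a glucocorticoid-induced gene, stood at -0.53 in both depression-susceptible samples against 0.09 in the insusceptible, 0.10 in the anxiety-susceptible and 0.02 and 0.07 in control samples. For Cdkn1a the depression-susceptible rats alone lay apart from 3 groups with near-equal levels. Twist1 (-0.76), a mesenchymal transcription factor, Slc39a12 (-0.72), a zinc importer, Ndufa10 (-0.64), a subunit of respiratory complex I, and the olfactory receptor Or2b11 (-0.87) were lower too, with control nearer the insusceptible sample.

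Other genes taken by this rule stood high in depression-susceptible rats. Rexo4, a nuclear exonuclease, read 0.02, -0.01, 0.04 and 0.14 on depression-susceptible arrays against -1.89, -1.83, -1.81 and -1.82 on insusceptible arrays. It differed by 1.89 ± 0.094 (adjusted p = 0.0582, and 2.59e-10 with the slide as random block), with control samples at -1.08 and -1.07 and the anxiety-susceptible sample at -0.91. Nqo2 (0.95), a quinone reductase, Adpgk (0.81), an ADP-dependent glucokinase, Lum (0.80), a collagen-binding proteoglycan, Nr4a2 (0.63), an activity-induced nuclear receptor, and Sox18 (0.61), an endothelial transcription factor, were 0.48 to 0.95 above control in depression-susceptible rats and -0.38 to 0.14 from control in insusceptible rats. Nr4a2 stood at 0.77 and 0.76 in depression-susceptible samples, 0.14 in the insusceptible, -0.15 in the anxiety-susceptible and 0.28 and 0.30 in control samples.

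**Figure D3:**
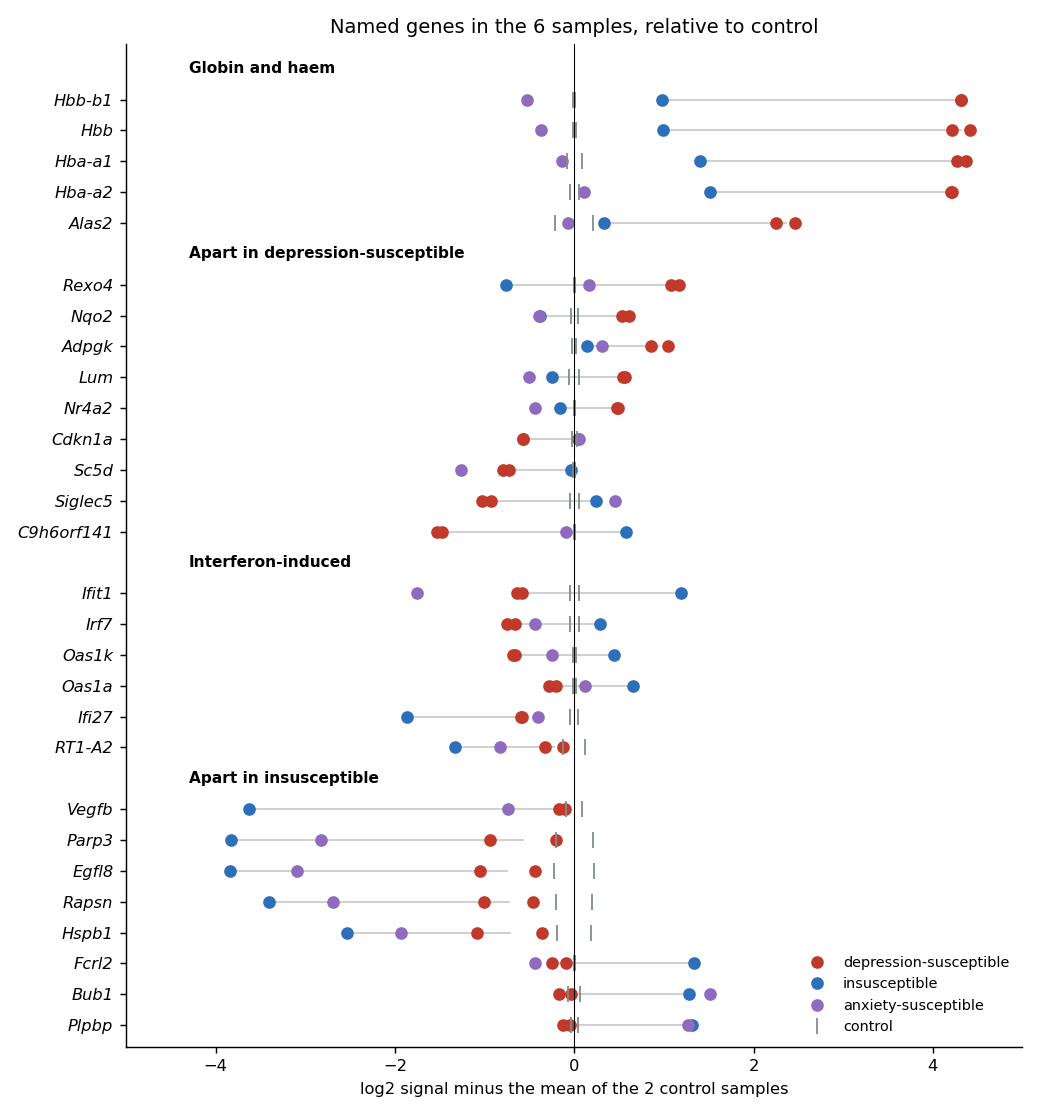
Log2 signal minus the mean of the 2 control samples (x axis) for 28 named genes, with 1 point for each sample: 2 depression-susceptible (red), 1 insusceptible (blue), 1 anxiety-susceptible (purple) and 2 control (grey ticks). Globins lie about 4 above control in depression-susceptible rats, Ifit1 lies on opposite sides of control in the 2 groups, and for Parp3, Egfl8, Rapsn and Hspb1 the anxiety-susceptible point lies beside the insusceptible one.

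Several interferon-induced genes were lower in depression-susceptible than in insusceptible rats, and others, some of them genes of antigen presentation, were higher. Ifit1, which binds viral RNA, read -5.42, -5.32, -5.24 and -5.38 on depression-susceptible arrays against -3.56, -3.58, -3.61 and -3.41 on insusceptible arrays. The difference was -1.80 ± 0.099, with an adjusted p of 0.0678 in 6 samples and 3.17e-06 with the slide as random block. Control samples lay between them at -4.78 and -4.68, so the difference from control was -0.61 in depression-susceptible and 1.19 in insusceptible rats, both past the threshold in 6 samples, and only 1 anxiety-susceptible array had the probe well above background. Irf7, the regulator that amplifies interferon production, stood at -1.70 and -1.79 in depression-susceptible samples, -0.75 in the insusceptible, -1.47 in the anxiety-susceptible and -0.99 and -1.09 in control samples.

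The oligoadenylate synthetase genes, which sense viral double-stranded RNA, also placed control between the groups. Oas1k stood at -4.63 and -4.64 in depression-susceptible samples, -3.52 in the insusceptible and -3.98 and -3.95 in control samples, and Oas1a and Oasl differed by -0.90 and -0.77. Usp18 (-0.73), which damps interferon signalling, and Ifit3 (-0.67) were lower as well. On the other side, Ifi27, a mitochondrial interferon-induced protein, stood at 2.15 and 2.13 in depression-susceptible samples against 0.87 in the insusceptible, 2.33 in the anxiety-susceptible and 2.69 and 2.77 in control samples. RT1-A2 (1.1), a classical class I antigen-presenting molecule, Tap1 (0.76), the peptide pump that loads it, and Gbp2 (0.63), an interferon-induced GTPase, were higher in depression-susceptible rats too. Over the whole list of 38 interferon and antigen presentation genes, 7 were higher and 13 lower in the random-block fit, and the median difference was -0.038 (0.022 after quantile normalization).

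The chemokine gene Cxcl10 and the cytokine gene Il1b were dim and depended on the background correction. Cxcl10, an interferon-induced T cell attractant, read -3.08, -2.94, -3.10 and -2.93 on depression-susceptible arrays against -4.90, -5.12, -4.84 and -4.79 on insusceptible arrays. Control samples at -3.86 and -4.01 lay midway, and the difference of 1.90 ± 0.11 (adjusted p = 0.0714) was 0.38 with normexp. Il1b, an inflammatory cytokine, stood at -4.97 and -5.11 in depression-susceptible samples, -5.87 in the insusceptible, -5.91 in the anxiety-susceptible and -6.31 and -6.15 in control samples. It was 1.19 above control in depression-susceptible rats (adjusted p = 0.0108), but its difference from insusceptible, 0.83, was -0.93 with normexp. Of 25 inflammation genes tested, 8 were higher and 1 lower in the random-block fit, with a median of 0.17, against -0.63 with normexp.

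Large differences also belonged to genes for which the insusceptible sample stood away and the anxiety-susceptible sample, scanned on the same day, stood beside it. Parp3, a DNA repair enzyme, read 2.61, 2.53, 3.36 and 3.27 on depression-susceptible arrays against -0.04, -0.44, -0.41 and -0.38 on insusceptible arrays, with the anxiety-susceptible sample at 0.69 and control samples at 3.72, from 1 array since the other had no value, and 3.31. The difference was 3.26 ± 0.38 (adjusted p = 0.0770, and 3.46e-07 with the slide as random block). In depression-susceptible and in control rats alike the slide 1 sample exceeded the slide 2 sample. Egfl8 (3.10), an endothelial secreted protein, Rapsn (2.67), which clusters acetylcholine receptors at muscle synapses, Adam7 (2.47), an epididymal membrane protein, Inpp5k (2.42), an inositol phosphatase, and Nkx2-1 (1.69), a transcription factor of thyroid, lung and ventral forebrain, had the same order of samples. So did Hspb1, a small heat shock protein, at 4.02 and 3.29 in depression-susceptible samples, 1.84 in the insusceptible, 2.44 in the anxiety-susceptible and 4.56 and 4.18 in control samples, and Cox6b2, a testis form of a cytochrome oxidase subunit, with a difference of 1.51.

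In the opposite direction, insusceptible and anxiety-susceptible samples lay above the other two groups. Bub1, a checkpoint kinase of dividing cells, read -2.42, -2.28, -2.28 and -2.15 on depression-susceptible arrays against -0.95, -0.77, -0.97 and -0.90 on insusceptible arrays, with the anxiety-susceptible sample at -0.66 and control samples at -2.11 and -2.24. Plpbp, a pyridoxal phosphate-binding protein, differed by -1.40 and Fgf17, a midbrain and hindbrain growth factor, by -1.89, again with the insusceptible and anxiety-susceptible samples above the others. For these genes the difference between depression-susceptible and control rats was -0.11 to -0.075.

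A smaller group separated insusceptible rats from all others, anxiety-susceptible rats included. Fcrl2, an Fc receptor-like protein of immune cells, stood at -3.44 and -3.29 in depression-susceptible samples, -1.86 in the insusceptible, -3.63 in the anxiety-susceptible and -3.20 and -3.19 in control samples. The olfactory receptor Olr35 stood at -5.77 and -5.79 in depression-susceptible samples, -4.36 in the insusceptible, -5.78 in the anxiety-susceptible and -5.64 and -5.61 in control samples. Sptlc3 (-1.46), a subunit of the enzyme that starts sphingolipid synthesis, Oaz3 (-1.39), a testis inhibitor of polyamine synthesis, Srd5a2 (-1.36), a testosterone 5-alpha-reductase, and Slc19a3 (-1.43), a thiamine transporter, also peaked in the insusceptible sample. Kcng1, a modifier subunit of voltage-gated potassium channels, was the reverse case, at -1.74 and -1.68 in depression-susceptible samples, -3.23 in the insusceptible, -2.15 in the anxiety-susceptible and -1.80 and -1.66 in control samples (difference 1.52, and 0.84 with normexp).

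Choroid plexus genes were far below control in both groups, and several were higher in depression-susceptible than in insusceptible rats, in part depending on the background correction. Ttr, the thyroxine carrier of cerebrospinal fluid, read 4.13, 4.17, 4.42 and 4.40 on depression-susceptible arrays against 2.91, 2.90, 2.85 and 2.92 on insusceptible arrays, a difference of 1.39 ± 0.18 (adjusted p = 0.0775 in 6 samples, 0.0371 after quantile normalization). Control samples at 5.88 and 5.63 and the anxiety-susceptible sample at 6.33 lay above both groups. Sostdc1, which blocks BMP and Wnt ligands outside the cell, stood at -3.06 and -3.11 in depression-susceptible samples, -4.48 in the insusceptible, 0.14 in the anxiety-susceptible and 2.15 and 2.06 in control samples. Its difference of 1.39 was 0.10 with normexp, and those of the water channel Aqp1 (1.21), the junction protein Cldn2 (0.64) and the membrane protein Mfrp (0.48) turned to -0.0064, -0.75 and -0.033.

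The folate receptor gene Folr1 differed by -0.11 (adjusted p = 0.494), and Kl, the anti-ageing hormone gene, was well above background on 4 control arrays and on no depression-susceptible or insusceptible array. Igf2, a growth factor of plexus and meninges, stood at 2.09 and 1.90 in depression-susceptible samples, 1.41 in the insusceptible, 2.44 in the anxiety-susceptible and 3.93 and 3.62 in control samples. Igfbp2, which binds it, differed by 0.41, and Slc4a2, an anion exchanger, by -0.74. Of 30 choroid plexus genes tested, 13 were higher and 2 lower in the random-block fit, and the median was 0.20, but -0.725 with normexp. The medians against control were -2.37 in depression-susceptible and -2.50 in insusceptible rats. The summed signal of the list was 38.8 to 44.6 times the 75th percentile on depression-susceptible arrays, 26.1 to 26.7 on insusceptible, 108.4 to 121.8 on anxiety-susceptible and 128.0 to 155.4 on control arrays. Htr2c, a serotonin receptor that choroid plexus also expresses, differed by 0.59 with control samples highest, and the part of plexus tissue in such differences was not tested.

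**Figure D4:**
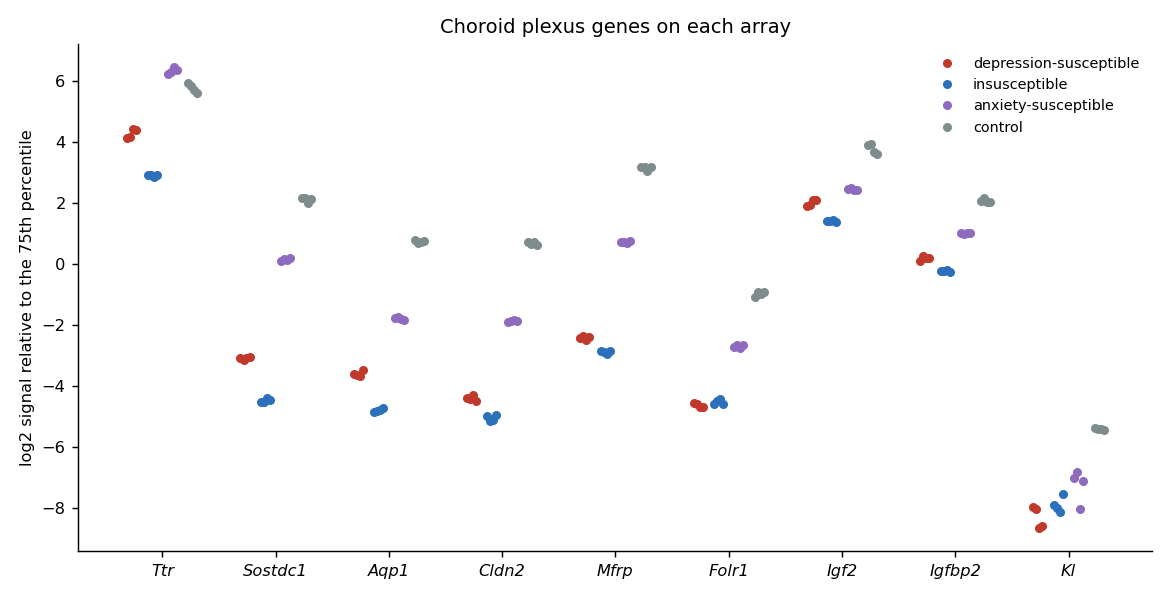
Log2 signal relative to the 75th percentile (y axis) of 9 choroid plexus genes on each array, coloured by group. Depression-susceptible and insusceptible arrays both lie below control and anxiety-susceptible arrays for each gene shown except Kl, which is near background on them and on the anxiety-susceptible arrays, and for Ttr, Sostdc1 and Aqp1 the depression-susceptible arrays lie 1.21 to 1.39 above the insusceptible ones.

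Glucocorticoid-induced genes leaned lower in depression-susceptible than in insusceptible rats, but with normexp their median lay close to that of all genes. Their median against control was -0.21 in depression-susceptible and -0.045 in insusceptible rats. Fkbp5, the chaperone that restrains the glucocorticoid receptor and is itself induced by it, stood at 1.68 and 1.85 in depression-susceptible samples, 2.47 in the insusceptible, 2.17 in the anxiety-susceptible and 1.93 and 2.06 in control samples. The difference was -0.70 ± 0.13 (adjusted p = 0.0833 in 6 samples, 2.08e-05 with the slide as random block), and neither group passed the 6-sample fit against control. Per1, a clock gene with glucocorticoid response elements, differed by -0.68, and Mertk, a phagocytic receptor, by -0.67. Pdk4, which spares glucose oxidation, and Sgk1, a kinase of ion transport, differed by -0.73 and -0.35, with control means above those of both groups. Dusp1, a phosphatase that switches off stress kinases, went the other way with 0.50. It stood at 0.73 and 0.83 in depression-susceptible samples, 0.28 in the insusceptible and 1.06 and 1.12 in control samples. Of 28 listed genes, 4 were higher and 12 lower in the random-block fit, beside 21.0% higher and 17.2% lower of all symbols. The median was -0.19, beside 0.015 over all genes, and with normexp it was -0.26, beside -0.20.

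None of the receptors and peptides of the stress axis passed the 6-sample fit. The glucocorticoid receptor gene Nr3c1 stood at 2.38 and 2.32 in depression-susceptible samples, 2.10 in the insusceptible, 2.03 in the anxiety-susceptible and 2.34 and 2.19 in control samples (difference 0.25, adjusted p = 0.222). Nr3c2, the mineralocorticoid receptor of hippocampal neurons, stood at 2.96 and 2.89 in depression-susceptible samples against 2.36 in the insusceptible, 2.44 in the anxiety-susceptible and 3.28 and 3.10 in control samples (difference 0.56, adjusted p = 0.0924). Crh, the hypothalamic releasing hormone also made by hippocampal interneurons, differed by 0.46 ± 0.17, and by -0.066 with normexp. Avp, the vasopressin gene, differed by 1.12 ± 0.30 (adjusted p = 0.115), with slide 1 above slide 2 in both groups that span them. Over 16 such genes, 4 were higher and 1 lower in the random-block fit.

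Immediate early genes, which neurons switch on within minutes of activity, leaned higher in depression-susceptible rats. Of 23 tested, 12 were higher and 2 lower in the random-block fit, beside 21.0% higher and 17.2% lower of all symbols. The median was 0.38, but only 0.069 with normexp, beside 0.015 and -0.20 over all symbols. The medians against control were -0.11 in depression-susceptible and -0.44 in insusceptible rats. Arc, a regulator of AMPA receptor uptake, stood at 2.05 and 1.82 in depression-susceptible samples, 1.52 in the insusceptible, 1.75 in the anxiety-susceptible and 1.97 and 1.80 in control samples. Egr4 (0.61), Junb (0.51), Btg2 (0.52) and Klf4 (0.81), transcription factors or cofactors of the same class, had depression-susceptible and anxiety-susceptible levels above the insusceptible one. Egr2 (0.76, and 0.17 with normexp) and Fos (0.65, and -0.57 with normexp) depended more on the background correction. Dusp5, an activity-induced phosphatase of ERK, was lower instead, at -1.18 in both depression-susceptible samples, -0.36 in the insusceptible, -0.48 in the anxiety-susceptible and -0.90 and -0.95 in control samples.

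In the list of neurotrophins, growth factors and their receptors, Vegfb was the only one past the 6-sample fit. Bdnf, the activity-dependent neurotrophin, stood at 0.31 and 0.55 in depression-susceptible samples, -0.10 in the insusceptible, -0.42 in the anxiety-susceptible and 0.72 and 0.91 in control samples, a difference of 0.53 ± 0.16 (adjusted p = 0.129 in 6 samples, 0.000409 with the slide as random block). Its receptor Ntrk2 differed by -0.29 and the receptor Igf1r by -0.56. Vegfa, the main vascular growth factor, differed by 0.10 ± 0.13, and its 5 probes did not share a sign; it was above control by 0.80 in depression-susceptible and by 0.70 in insusceptible rats. Of 20 neurotrophin and growth factor genes, 2 were higher and 5 lower in the random-block fit, with a median of -0.040.

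Genes of inhibitory transmission differed in both directions, none past the 6-sample fit. Gad1 and Gad2, the 2 enzymes that make GABA, differed by -0.33 and 0.46, and the Gad2 value was -0.055 with normexp. Gabra4 (0.58) and Gabrg1 (0.64), subunits of GABA-A receptors, were higher in depression-susceptible rats, with control above both groups, and Gabrb1 was lower, at 1.11 and 1.08 in depression-susceptible samples against 1.75 in the insusceptible, 1.62 in the anxiety-susceptible and 1.24 and 1.26 in control samples. Slc6a13, a GABA and taurine transporter of meninges, differed by -1.0, and 2 other meningeal genes, the retinoic acid enzyme Aldh1a2 (-0.75) and the organic anion transporter Slc22a6 (-0.72), were lower beside it. Slc6a13, Aldh1a2 and Slc22a6 lay 1.21, 0.40 and 0.77 above control in depression-susceptible rats. In insusceptible rats they lay 2.21, 1.155 and 1.48 above control. The meningeal markers Dcn (0.27) and Igf2 (0.59) were higher in depression-susceptible than in insusceptible rats. The list of 16 meningeal genes had 4 higher and 7 lower in the random-block fit, with a median of -0.038. Over the 26 GABA synapse genes, 9 were higher and 5 lower in the random-block fit, with a median of 0.028 (-0.042 with normexp).

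Among interneuron peptides, Npy read 3.4, 3.27, 3.37 and 3.51 on depression-susceptible arrays against 2.56, 2.5, 2.49 and 2.52 on insusceptible arrays. Control samples at 4.0 and 3.80 lay above both groups, the anxiety-susceptible sample at 2.64 lay beside the insusceptible one, and the difference was 0.87 ± 0.13 (adjusted p = 0.0786). Sst, the somatostatin gene, differed by 0.14 (adjusted p = 0.534). The opioid precursors Pnoc (0.72) and Penk (0.46) were higher in depression-susceptible rats, and so was Mgll (0.53), the enzyme that degrades the endocannabinoid 2-arachidonoylglycerol. Mgll stood at -1.39 and -1.28 in depression-susceptible samples, -1.86 in the insusceptible, -2.08 in the anxiety-susceptible and -1.86 and -1.90 in control samples.

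Of 38 synaptic vesicle genes, 12 were higher and 4 lower in the random-block fit, which called 38.2% of all symbols, and 0 passed the 6-sample fit. Their median was 0.20, with 0.11 after quantile normalization and 0.066 with normexp. Syp, the most abundant vesicle membrane protein, stood at 5.20 and 4.91 in depression-susceptible samples, 4.28 in the insusceptible, 4.44 in the anxiety-susceptible and 5.61 and 5.36 in control samples. Sv2a (0.59), a vesicle glycoprotein, Rims1 (0.60), an active zone scaffold, and Syt1 (0.55), the calcium sensor of release, were higher too, and Syn3 was lower (-0.68). The postsynaptic and receptor genes showed no common direction: Dlg4, the PSD-95 scaffold, differed by 0.59, the kainate receptor gene Grik5 by 1.33, the NMDA receptor gene Grin1 by -0.51 and Cacng2, an AMPA receptor partner, by -0.50. In 26 postsynaptic density genes 5 were higher and 8 lower, and in 20 glutamate receptor genes 5 were higher and 4 lower.

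The monoamine receptor and transporter genes named here were dim. Adrb1, a beta-adrenergic receptor, stood at -3.43 and -3.53 in depression-susceptible samples, -2.49 in the insusceptible, -2.55 in the anxiety-susceptible and -3.47 and -3.50 in control samples. Htr1a and the serotonin transporter gene Slc6a4 were near background, with Slc6a4 well above it on 2 depression-susceptible and 0 insusceptible arrays, and neither had a settled difference. Of 31 monoamine genes, 8 were higher and 7 lower, and the median of -0.035 was -0.78 with normexp.

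Markers of the main hippocampal cell types were present in both groups. The neuronal markers Neurod6, Slc17a7 and Camk2a were well above background on all 8 arrays. The pan-neuronal marker Rbfox3 was so on 2 depression-susceptible and 4 insusceptible arrays and differed by -0.65 (adjusted p = 0.00118 with the slide as random block). Its depression-susceptible mean of -0.94 lay above that of Camk2a (-3.65). Arrays whose spots were all flagged as outliers also count as not above background, so this count does not show a signal at background. The granule cell factor Prox1 was well above background on 3 depression-susceptible and 0 insusceptible arrays. Gfap, the astrocyte filament, stood at 5.16 and 4.89 in depression-susceptible samples, 5.14 in the insusceptible, 5.35 in the anxiety-susceptible and 5.46 and 5.31 in control samples. Among microglial genes, Cx3cr1 differed by 0.042 and Csf1r by 0.076, but the integrin gene Itgam was low, at -5.01 and -4.89 in depression-susceptible samples, -4.08 in the insusceptible, -4.19 in the anxiety-susceptible and -3.17 and -2.97 in control samples. Mbp, a main protein of myelin, differed by 0.44 and Mog, another myelin protein, by 0.0072.

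Values of further glial and vascular genes, none past the 6-sample fit, follow. Gpr17, a receptor of maturing oligodendrocytes, differed by -1.01 and Cspg4, a marker of their precursors and of pericytes, by -0.59. The astrocyte genes Fgfr3 and Gja1 differed by 0.54 and -0.37. Abcg2, a drug pump of brain vessels, stood at -0.75 and -0.89 in depression-susceptible samples, 0.14 in the insusceptible, -0.01 in the anxiety-susceptible and -0.30 and -0.42 in control samples, while Emcn and Ocln, also vascular, differed by 0.68 and 0.56. The CA1 neuron genes Wfs1 (0.80) and Dkk3 (0.83) were higher in depression-susceptible rats with control higher still. Among 18 astrocyte genes 3 were higher and 7 lower, among 24 microglial genes 2 and 5, and among 25 oligodendrocyte genes 7 and 4.

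**Figure D5:**
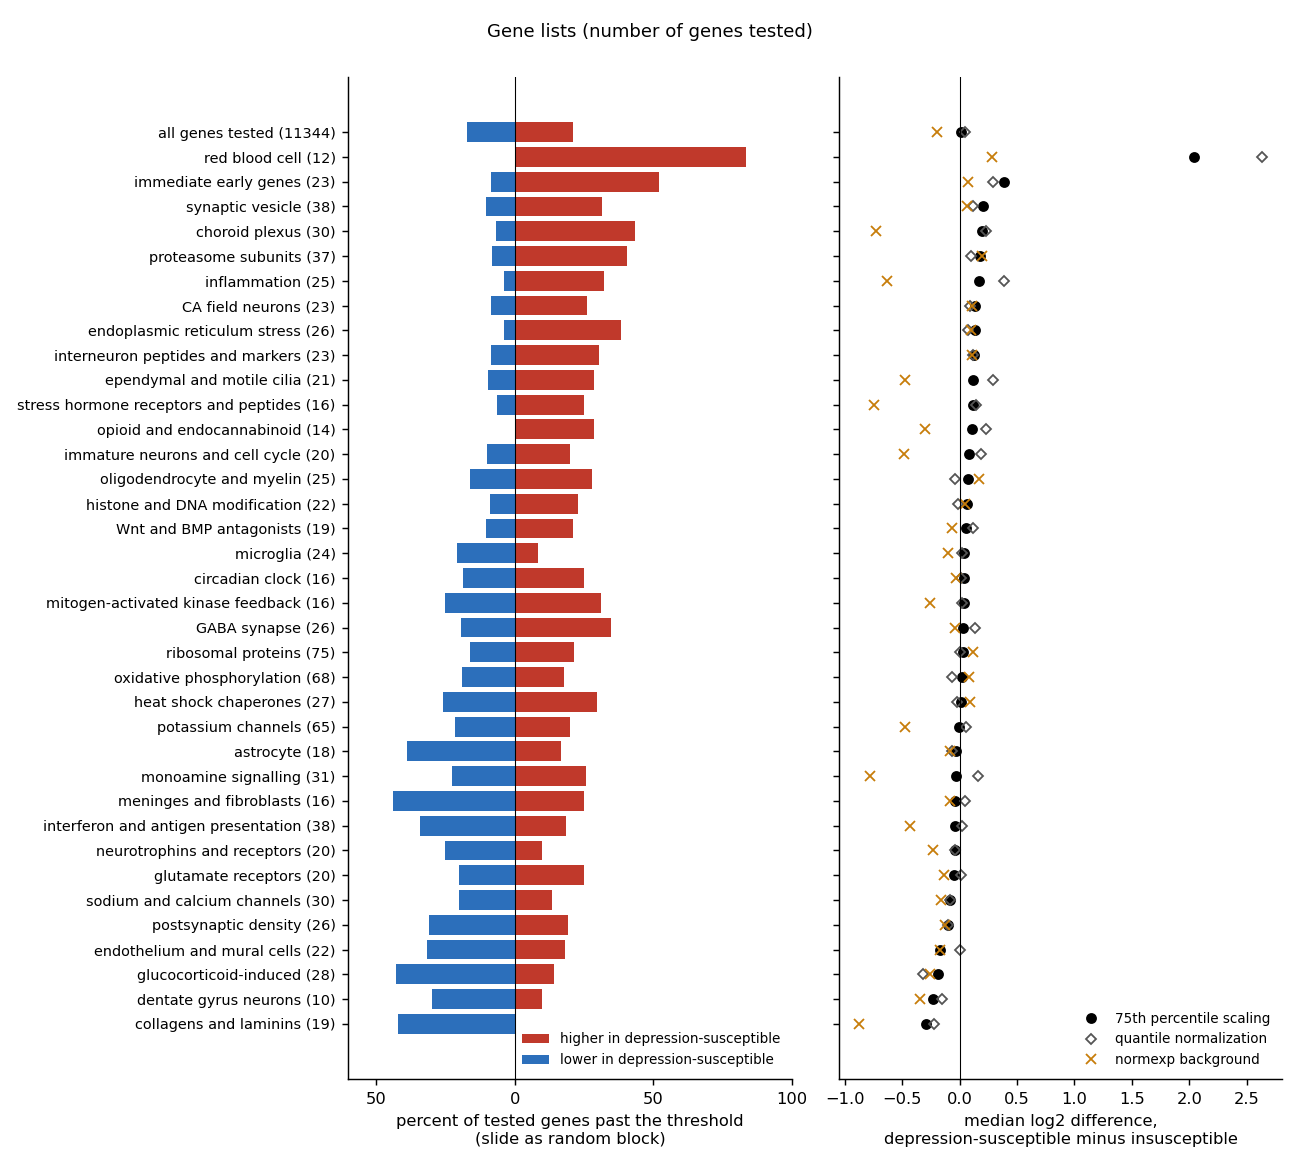
Left, percent of the tested genes of each list (number in brackets) past the threshold in the fit with the slide as random block, higher (red) or lower (blue) in depression-susceptible than in insusceptible rats. Right, median log2 difference under 3 ways of scaling. The red cell list, which counts globin copies separately, stands out at 2.04. Glucocorticoid-induced genes and collagens lie below 0, and the all-genes row is at 0.015 and, with normexp, at -0.20.

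Genes of protein turnover leaned higher in depression-susceptible rats, with both groups below control. Proteasome subunits were higher in 15 of 37 cases and lower in 3, with a median of 0.17 and medians against control of -0.36 in depression-susceptible and -0.465 in insusceptible rats. Psmb3 stood at 3.35 and 2.90 in depression-susceptible samples, 2.39 in the insusceptible, 2.45 in the anxiety-susceptible and 4.29 and 3.92 in control samples, and Psma2 differed by 0.59. Of 26 genes of endoplasmic reticulum stress 10 were higher and 1 lower. They include Hsp90b1 (0.70), a chaperone of secreted proteins, and Atf4 (0.62), the transcription factor of the stress response, whereas the lower one, the disulfide isomerase Pdia2 (-1.14), was not well above background on any control array.

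Collagens and laminins were 0 higher and 8 lower of 19, with a median of -0.30. Both groups lay above control for Col5a1, at -4.67 and -4.60 in depression-susceptible samples, -3.81 in the insusceptible, -3.53 in the anxiety-susceptible and -6.63 and -6.53 in control samples, and the same held for Col7a1 (-0.70) and Col11a2 (-0.59). Rasgrf1, a calcium-dependent Ras activator of neurons, likewise differed by only -0.47 between the groups and stood 2.66 above control in depression-susceptible and 3.13 above control in insusceptible rats. Ribosomal proteins (16 higher and 12 lower of 75, median 0.027) and respiratory chain genes (12 and 13 of 68, median 0.019) had no common direction. Rps13 differed by 0.40, and Rpl10, at -5.30 and -6.44 in the depression-susceptible samples, by -1.30 ± 0.73; Ndufs7, a complex I subunit, differed by -0.69.

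Heat shock chaperones were divided, with 8 higher and 7 lower of 27: Cryab (-0.54) and Hsp90aa1 (-0.59) were lower beside the high Hspb1. Clock genes gave 4 higher and 3 lower of 16, with the repressor Nr1d1 at 0.68 and Per1 lower as given above. Hdac1, a histone deacetylase, differed by 0.55, the cyclin gene Ccnd1 by 0.74, the sodium channel subunit Scn4b by -1.04 and the cilia gene Cfap126 by 0.60.

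Probes for non-coding RNA differed from those for messenger RNA in the sign of their median. Of 1101 RefSeq non-coding probes, 127 were higher and 388 lower in the random-block fit (46.8% called) and the median difference was -0.28. Of 12466 messenger RNA probes, 2604 were higher and 2147 lower (38.1%), with a median of 0.014. Neither the part of signal level nor of background in this gap was tested, and 0 non-coding probes passed the 6-sample fit.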

How the data were processed

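Each of the 16 arrays was a 1-colour Agilent array (design 026403) of hippocampal RNA, depleted of ribosomal RNA and labelled with Cy3 after random priming, per the labels. The authors deposited scanner intensity values made by Feature Extraction 11.0.1.1 with protocol GE1_1100_Jul11, per the file headers, and a value table that the authors deposited on a log2 scale, which correlated 0.9976 to 0.9997 with the scaled intensities. Its column medians were all 7.49, and the sources used here do not give its normalization.

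Processed signals were averaged over the spots of a probe, divided by the 75th percentile of the array and taken to log2. Of 24684 probes, 17885 were well above background on at least 4 arrays and were tested, 506 of them with a missing value on some array. Arrays of 1 group on 1 slide were averaged, and the 6 samples were fitted with limma 3.58.1 (R 4.3.3) with two-sided tests, Benjamini-Hochberg adjustment over all tested probes and a threshold of 0.05. That fit had 2 residual and 1.915 prior degrees of freedom, and the slide correlation of the random-block fit was 0.4666. Tables and figures used Python 3.11.15, pandas 2.3.3, numpy 2.4.6 and matplotlib 3.10.9. Normexp (offset 50) used median spot and background signals, since the files hold no mean signal.

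Each symbol was read from its brightest probe. Named genes were those with the largest differences past the 6-sample fit with the same sign under quantile normalization and normexp, the largest called members of each gene list, and a panel of stress and cell type genes. Because few genes passed that fit, others were added after their values were seen: genes past the random-block fit, the largest or those away from control in depression-susceptible rats also past the quantile fit, and up to 5 such members of each list, plus genes named for their role. A few genes that met these rules are not reported here. The members and lists were chosen with earlier results of these data known. On simulated data for depression-susceptible against insusceptible (17885 probes), the 6-sample fit recovered 52% of 2-fold, 92% of 4-fold and 98% of 16-fold changes, with 14 unchanged probes called.

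Deviations of arrays with the same replicate number in depression-susceptible and insusceptible groups correlated at -0.098 to 0.063, so the numbers were not taken to pair samples. The number of arrays and slides limits the precision.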

Additional observations from a re-analysis of the deposited data

Results flagged for a closer look

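The effects of the 2 stressed groups against control differed from each other by the limma test on 6 samples for 9 gene symbols, the calls described above. These differences, depression-susceptible minus insusceptible, were 3.34 for Hbb-b1, 3.32 for Hbb, 3.32 for Hbbl1, 3.29 for Hbb-bs, 2.92 for Hba-a1, 2.70 for Hba-a2, 3.49 for Vegfb, 2.13 for Hoxc4 and -2.09 for C9h6orf141.

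One array lay far from the other 3 of its group for 14 of 298 groups of 4 arrays, 1 of 149 in depression-susceptible and 13 of 149 in insusceptible rats. Chance flags about 1 in 20 groups if the 4 arrays are alike in design. Depression-susceptible arrays lie 2 each on slides 1 and 2, whose means varied 3.42 times as much as repeated spots would make them. The 4 insusceptible arrays share slide 4, so the counts of the 2 groups cannot be compared. In depression-susceptible rats this held for Mgll, with 1 array at -1.19 and the others between -1.39 and -1.37. In insusceptible rats it held for 13 genes. Ahsp had 1 array at -5.96 (others -5.44 to -5.36), Epb42 at -8.73 (others -8.24 to -8.18), Itgam at -4.19 (others -4.05 to -4.03) and Grik5 at 2.07 (others 2.11 to 2.12). Hsp90aa1 had 1 array at 4.98 (others 5.06 to 5.07) and Fgfr3 at 0.52 (others 0.60 to 0.62). On the high side, Parp3 had 1 array at -0.04 (others -0.44 to -0.38), Lum at -1.83 (others -1.96 to -1.94), Slc6a13 at -2.26 (others -2.52 to -2.48) and Vegfa at 2.06 (others 1.93 to 1.94). Htr2c had 1 array at 2.10 (others 2.03 to 2.04), Sgk1 at 2.73 (others at 2.69) and Gabra4 at -0.23 (others at -0.26). None of these spreads approached the group difference for Parp3 or Grik5.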

How the results depend on the processing

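For depression-susceptible against insusceptible, the 12 calls became 885 with quantile normalization, 398 with the deposited value table (304 higher, 94 lower), 4166 without the filter on dim probes (422 higher, 3744 lower), 11021 with 16 arrays as separate samples and 7128 with the slide as random block. They became 0 with normexp (374 probes at an unadjusted p under 0.05) and 0 with only the 2 groups in the fit (4727 unadjusted), and ranged from 0 to 13 when 1 slide sample or array was left out. For depression-susceptible against control, 1766 calls became 0 with normexp (509 unadjusted), 1016 without the filter (800 higher, 216 lower), 8800 with separate arrays, 10230 with the random block and 407 to 661 without 1 slide sample. For insusceptible against control, 5158 calls became 0 with normexp (975 unadjusted), 8138 without the filter (6421 higher, 1717 lower), 13005 with separate arrays, 10177 with the random block and 1290 to 2254 without 1 slide sample. A replicate block on separate arrays gave 10434, 8181 and 12605 calls in these 3 comparisons, and the numbers were not taken to pair samples. Normexp moved the median of all probes to -0.32 and dropping the filter moved it to -0.19. The normexp setting also used median spot and background signals in place of processed signals, and the cause of all these changes was not tested. Of 149 named genes, 133 were reversed under no setting. Normexp gave Hba-a3 -1.29, Ahsp -1.04, Epb42 -1.75, Mfrp -0.033, Aqp1 -0.0064, Cldn2 -0.75, Crh -0.066, Fos -0.57, Gad2 -0.055, Htr1a -1.80, Cx3cr1 -0.22 and Il1b -0.93. Quantile normalization and the deposited table gave 0.12 and 0.071 for Folr1, 0.075 and 0.059 for Kl, and -0.057 and -0.056 for Vegfa. Leaving out 1 sample or array gave -0.35 to 0.89 for Htr1a, -0.25 to 0.021 for Gfap and -0.058 to 0.14 for Cx3cr1. List medians turned negative with normexp for choroid plexus (-0.725), ependymal (-0.48), stress hormone (-0.745), opioid (-0.30), inflammation (-0.63), immature neuron (-0.49), mitogen-activated kinase feedback (-0.26), microglia (-0.099), Wnt and BMP antagonist (-0.066), GABA synapse (-0.042) and clock genes (-0.033). Quantile normalization turned those of monoamine (0.16), potassium channel (0.053), meningeal (0.045), interferon (0.022), glutamate receptor (0.008), endothelial (0.004), histone (-0.012), heat shock (-0.020), oligodendrocyte (-0.042) and respiratory chain genes (-0.071).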
